A study of Mus musculus with 6 samples.

Results

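The cytosolic ribosomal protein genes encode the protein part of the ribosomes that translate nuclear messages in the cytoplasm. They were taken from the deposited tables by symbol: Rpl or Rps followed by a number, with an a, x or y where the name has one, plus Rplp0, Rplp1, Rplp2 and Rpsa. This gave 77 of 23099 gene symbols, 46 of the large and 31 of the small subunit, each with a single row. Pseudogenes and paralogs whose names end in -ps or in l were not members.

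The samples were whole pancreas of 8-week-old mice, 3 libraries from wild-type (WT) animals and 3 from Ela1-Myc animals, the only 2 genotypes. Ela1-Myc mice carry Myc under the promoter of elastase 1, which is active in the enzyme-secreting acinar cells. The study's title places the comparison in the maturation of acinar cells and the loss of Myc that goes with it. Polyadenylated RNA was sequenced from stranded libraries. Whether libraries of the same genotype are different animals is not stated, and p-values then describe only the spread among libraries. RNA integrity numbers (RIN) were 7.1 to 7.3 in WT and 7.2 to 8.8 in Ela1-Myc.

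Ribosomal proteins are made in near-equal amounts, assembled with ribosomal RNA in the nucleolus and exported as a large and a small subunit. Their messages are among the most abundant in growing cells and start with a pyrimidine-rich stretch, the 5′ terminal oligopyrimidine (TOP) element, through which nutrient signalling controls their translation. Myc is known as an activator of ribosome production. The acinar cell is built for protein synthesis and devotes most of its own messages to digestive enzymes.

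The first bases of some of these genes show what the family shares at its starts. RefSeq promoter windows of 300 bases (250 before to 50 after the annotated start, GRCm38.p6) were at hand for 57 of the 77 members. A TOP-like start was counted where a C followed by at least 4 pyrimidines began within 5 bases of the annotated start. It was present in 27 of the 57 members (47.4%) and in 21.2% of the 27025 genes with a window. The capitals below mark that run in 3 members whose log2 change between the genotypes was above the family's median, then in 3 below it. The change of Rpl27a includes a 0 in 2 WT libraries. Each stretch is the coding strand from 5′ to 3′.

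Rps9 at chr7:3704021-3704064, plus strand: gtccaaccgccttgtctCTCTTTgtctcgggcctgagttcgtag
Rpl14 at chr9:120571497-120571540, plus strand: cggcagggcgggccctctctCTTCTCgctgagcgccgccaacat
Rpl27a at chr7:109519175-109519218, plus strand: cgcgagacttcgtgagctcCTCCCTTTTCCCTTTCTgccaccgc
Rps6 at chr4:86857344-86857387, minus strand: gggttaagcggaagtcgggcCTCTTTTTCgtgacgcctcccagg
Rpl28 at chr7:4792945-4792988, plus strand: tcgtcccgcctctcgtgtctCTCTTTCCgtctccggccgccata
Rps10 at chr17:27635221-27635264, minus strand: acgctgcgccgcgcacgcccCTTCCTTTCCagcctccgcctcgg

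The Myc transgene product and its partner Max bind the E-box CACGTG. This hexamer, which reads the same on both strands, lay in the windows of 6 of 57 members (10.5%) and of 8.09% of all genes with a window. A gene with several windows was counted where any of them matched. The 6 were Rpl13a, Rpl14, Rpl19, Rpl23, Rpl34 and Rps19. Their stretches around the motif, in capitals, are shown for a member close to its start and for 2 with the motif farther upstream.

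Rpl19 at chr11:98026679-98026708, plus strand: tacccagaggacCACGTGaccaaacgccct
Rps19 at chr7:24884781-24884810, plus strand: tggagccgcggcCACGTGcgagcggcaggc
Rpl34 at chr3:130730536-130730565, minus strand: cacctaacttctCACGTGacgttcctaccg

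CCGGAAG on either strand, the core of ETS-family sites, was in 24 members (42.1%, against 9.93% of all genes with a window). AAGATGGC on either strand, the YY1 core, was in 5 (8.77% against 3.19%). TATAAA on either strand was in 6 (10.5% against 15.7%). A match describes the letters in the window and not a site in use.

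Values are the authors' adjusted FPKM, an expression level per transcript length, divided by 100000. Libraries summed to 629597 to 1948844 of these units and their read depth is unknown. An exact 0 can be a failed estimate in these files, so such genes are described as listed at 0. Of the 8802 genes tested, 1061, 592 and 1426 had a 0 in WT replicates 1, 2 and 3, and 0, 29 and 13 in the Ela1-Myc replicates. Myc stood at 52.0, 34.4 and 34.2 in Ela1-Myc, at 4.10 in the second WT library and at 0 in the other two (limma adjusted p = 4.97e-05). The 10 acinar markers were above 0 in every library and summed to 269769 to 816388 in WT and 163510 to 369373 in Ela1-Myc. Of these 10, 4 were called lower (0.239% of all genes tested) and 0 higher (70.2%). After median-of-ratios scaling, defined below, 8 were called lower (7.95%). On that scale 9 had no Ela1-Myc value as high as a WT value, against 1511 of the 8802 genes tested. The 9 macrophage markers summed to 0.711 to 58.5 in WT and 489.4 to 1320 in Ela1-Myc, and the 8 fibroblast markers to 49.8 to 112.7 and 372.7 to 577.5. The defining macrophage marker Cd68 was listed at 0 in all WT libraries. The sums of islet, duct and lymphocyte markers overlapped between the groups. Islet markers summed to 0.182 to 2478 in WT and 2446 to 3361 in Ela1-Myc. Duct markers summed to 74.5 to 205.6 and 188.0 to 347.2, and lymphocyte markers to 0 to 42.0 and 22.3 to 219.9, in the same order. The part of such cells, of RIN and of the listed zeros in the results below was not tested. In whole tissue, more cells of a type and more RNA per cell cannot be told apart.

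In the deposited values ribosomal protein genes were higher in Ela1-Myc pancreas as a family, as was the median of all genes tested. The WT libraries were widely spread among themselves. The median of the 77 members was 72.9, 445.3 and 177.3 in the WT libraries, in order of replicate, and 894.7, 772.9 and 651.4 in the Ela1-Myc libraries. The 3 Ela1-Myc libraries thus lay above all 3 WT libraries, with WT replicate 2 closest to them. The median of all 8802 genes tested was also higher in Ela1-Myc (4.62, 4.64 and 5.53) than in WT (0.867, 1.99 and 1.08). This separation alone therefore does not set the family apart from the background. Within WT the order of the libraries held gene by gene in the family. In 72 of 77 members WT replicate 1 was lowest, replicate 3 next and replicate 2 highest of the WT libraries. The summed values of all genes had the same order, at 669391, 1180257 and 1948844 in WT replicates 1, 3 and 2. The share of all genes with this order is not given, so it is not read as a trait of the family. WT replicate 2 exceeded replicate 1 by a median of 5.16-fold over the 68 members above 0 in replicate 1. The mean of the Ela1-Myc libraries exceeded WT replicate 2 by a median of 1.77-fold. Within Ela1-Myc, replicate 1 was highest and replicate 3 lowest in 68 members each.

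**Figure D1:**
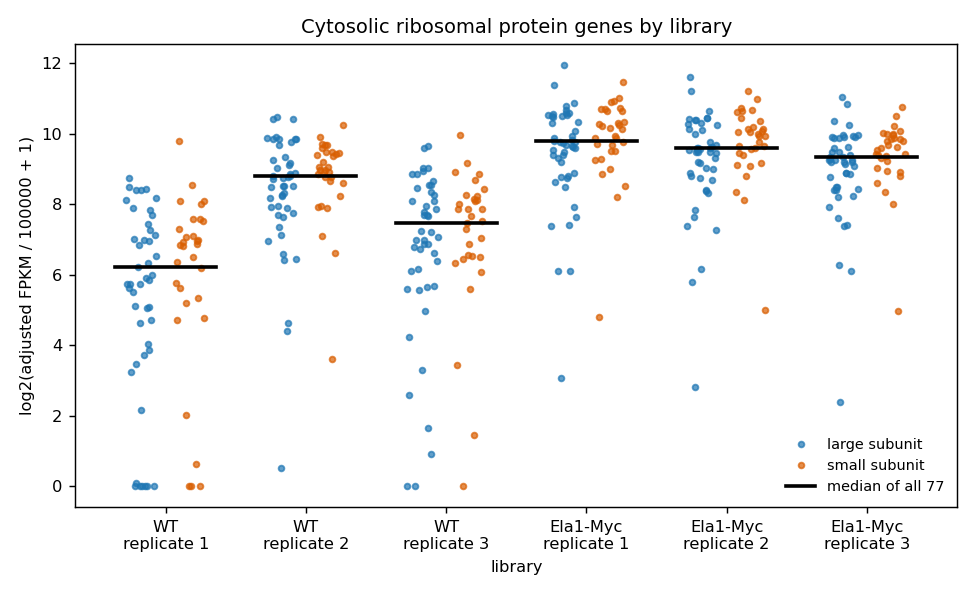
Level of the 77 ribosomal protein genes in each library, on a log2(value + 1) axis, with large subunit genes in blue, small subunit genes in orange and the median of all 77 as a black bar. The Ela1-Myc medians (651.4 to 894.7 before the log) lie above those of WT (72.9 to 445.3), and the points on the zero line are members listed at 0 in WT replicates 1 and 3. The median of all genes tested, not drawn, was also higher in Ela1-Myc (4.62 to 5.53) than in WT (0.867 to 1.99).

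The family took a larger share of all summed values in Ela1-Myc. It made up 1.36%, 1.99% and 1.43% in WT (1.60% ± 0.344, SD, n = 3) and 7.31%, 10.9% and 7.08% in Ela1-Myc (8.43% ± 2.14, SD, n = 3). A list of 35 digestive enzyme genes held 90.5% to 92.1% of the sum in WT and 61.7% to 73.8% in Ela1-Myc. With those enzymes left out of the sum, the share was 14.5%, 20.9% and 18.2% in WT and 27.9%, 28.4% and 23.6% in Ela1-Myc. The groups did not overlap with either denominator, and the means went from 8.43% against 1.60% to 26.6% against 17.9%. The summed large subunit genes were 1.16, 1.34 and 1.35 times the summed small subunit genes in WT and 1.26, 1.19 and 1.23 times in Ela1-Myc, so the balance of the subunits overlapped between the groups.

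**Figure D2:**
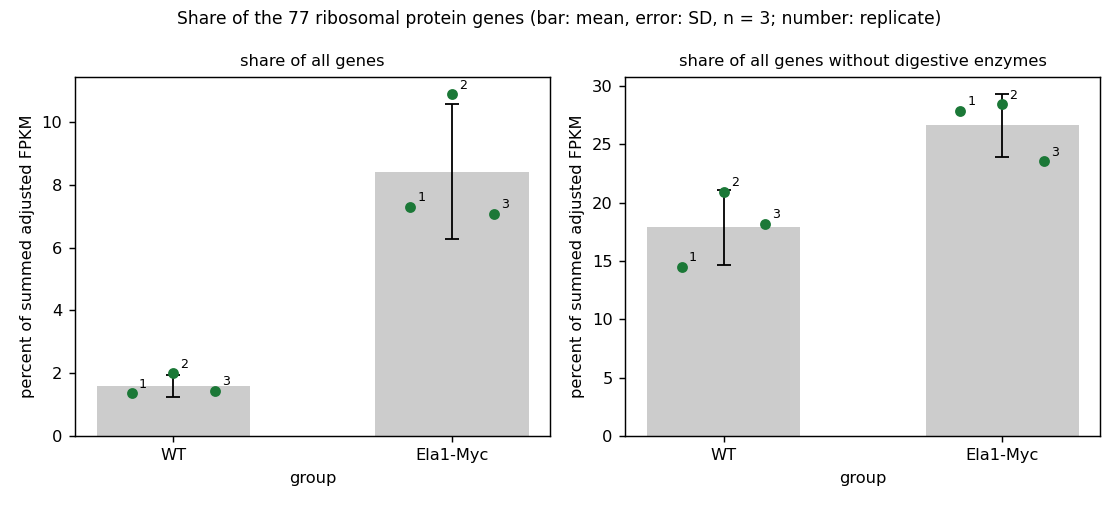
Share of the 77 genes in the summed adjusted FPKM of each library, in percent, over all genes (left) and without the digestive enzyme list (right). Bars are means, error bars SD (n = 3) and numbered points the replicates; the groups are apart in both panels, by more on the left (1.60% and 8.43%) than on the right (17.9% and 26.6%).

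Fitted gene by gene, 43 of the 77 members (55.8%) were called higher in Ela1-Myc and none was called lower (limma with Benjamini-Hochberg adjustment over all 8802 genes tested, threshold 0.05). At an unadjusted p below 0.05, 52 were higher and 0 lower. The shares of all genes at that threshold are not given, here or on the scales below. Over all genes tested 70.2% were called higher and 0.239% lower, so the count of calls does not set the family apart from the background. All 3 Ela1-Myc values exceeded all 3 WT values in 73 members (94.8%), against 75.3% of all genes tested. The median log2 change was 2.00, against 1.22 for all genes tested, and among the 67 members above 0 in every library it was 1.90. Large subunit members were called in 24 of 46 cases (median 1.99) and small subunit members in 19 of 31 (median 2.06). Standard errors ran from 0.32 to 1.66 log2 units. The 4 members whose groups overlapped were Rpl10, Rpl13, Rpl26 and Rpl35.

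**Figure D3:**
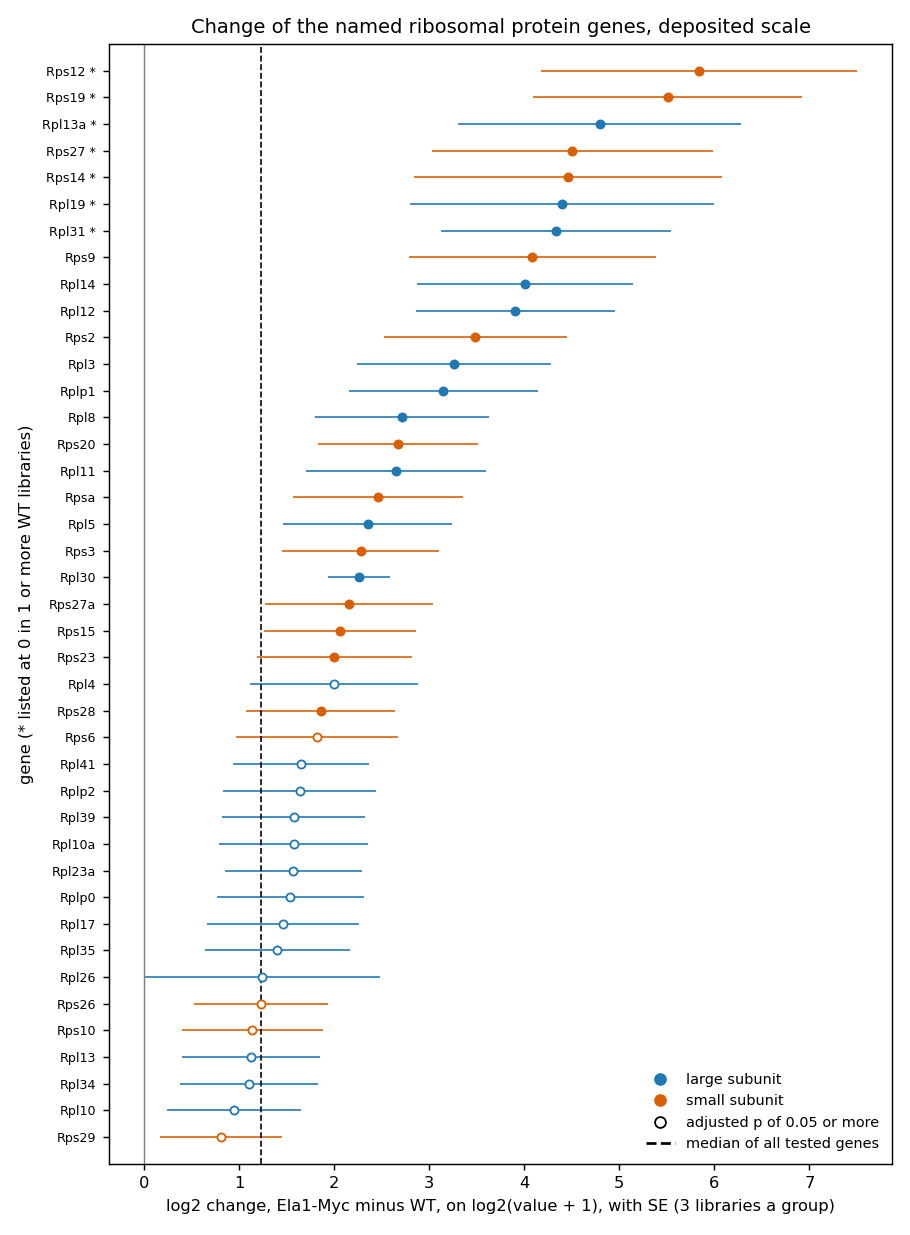
Log2 change of 41 members picked by structural role, size of change, level or listed zeros, on the deposited scale, Ela1-Myc minus WT on log2(value + 1), with its standard error. Filled points passed the adjusted p of 0.05 (24 of these 41), stars mark genes with a listed 0 among the WT libraries, and the dashed line is the median of all tested genes at 1.22.

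The call of nearly every member rested on how the libraries were scaled. Median-of-ratios scaling, which sets each library by its typical gene, moved the median of all genes tested from 1.22 to 0.24 and that of the family from 2.00 to 0.49. On that scale Rpl30 was the 1 member called higher (18.1% of all genes tested) and none was called lower (7.95%). At an unadjusted p below 0.05, limma had 9 members higher and 0 lower there. All 3 Ela1-Myc values were above all 3 WT values in 8 members, against 30.4% of all genes, Rpl12, Rpl22, Rpl27a, Rpl30, Rpl37a, Rps12 and Rps15a among them. The members' medians were then 179.3, 476.5 and 326.7 in WT and 535.2, 511.0 and 339.5 in Ela1-Myc, and WT replicate 2 lay within the Ela1-Myc range. With the digestive enzymes removed and totals made equal, 14 members were called higher (21.7% of all genes) and the median was 0.72 against 0.40. Quantile normalization called 8 higher (11.3%), with a median of 0.45 against -0.18. With WT replicates 1 and 3 left out, 15 members were called on the deposited scale (median 0.80 against 0.85 for all genes) and the scaled median turned to -0.29 against 0.06. Single libraries moved the count too. On the deposited scale, leaving out the WT libraries in turn gave 20, 75 and 29 called members, and leaving out the Ela1-Myc libraries 10, 15 and 13. With RIN as a covariate 16 were called. The shares of all genes called with libraries left out or with RIN are not given here. Those counts are therefore not read as results about the family. The fit without WT replicates 1 and 3 compares the Ela1-Myc libraries with 1 WT library, whose spread is assumed to be that of the others.

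**Figure D4:**
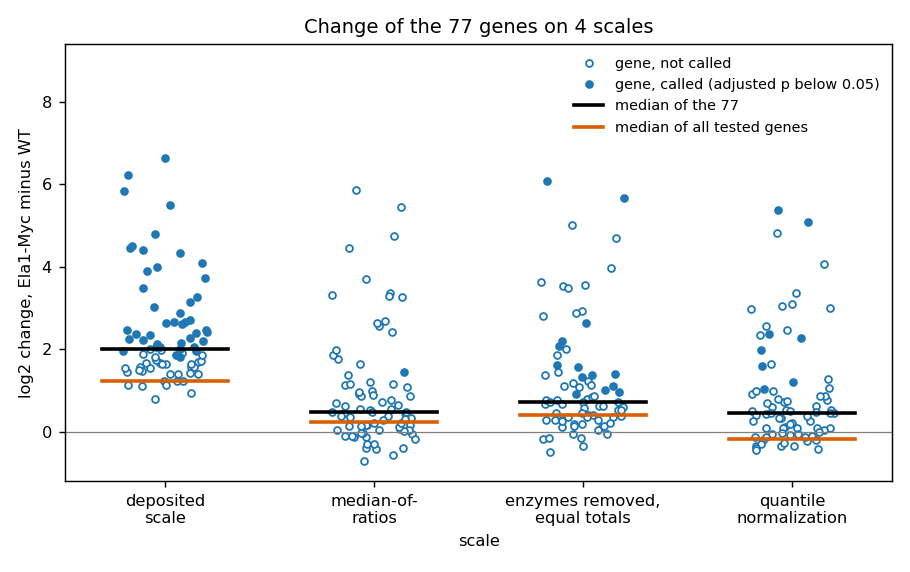
Log2 change of the 77 genes, Ela1-Myc minus WT, under 4 scalings of the same values, with filled points for genes past the adjusted p of 0.05. The black bars are the family's median (2.00, 0.49, 0.72 and 0.45) and the orange bars the median of all tested genes (1.22, 0.24, 0.40 and -0.18).

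The P stalk is the flexible arm of the large subunit that recruits the translation factors, made of Rplp0, Rplp1 and Rplp2 on a base that includes Rpl12. Of these 4 genes 2 were called higher on the deposited scale, and all 4 had Ela1-Myc values above WT values, against 70.2% and 75.3% of all genes tested. Rplp1, an acidic stalk protein, stood at 52.5, 1364 and 524 in WT against 3959, 3153 and 2127 in Ela1-Myc, the highest level of any member there. Its log2 change was 3.15 ± 1.00 (SE, adjusted p = 0.0124), or 1.63 after median-of-ratios scaling (limma adjusted p = 0.212). Rpl12 stood at 12.2, 362 and 67.6 in WT against 1268, 1110 and 784 in Ela1-Myc, and every Ela1-Myc library was at least 2.17 times the highest WT library. It rose by 3.91 ± 1.05 (limma adjusted p = 0.00505); after scaling the change was 2.41 (limma adjusted p = 0.084). Rplp0, the core of the stalk and a common reference gene in PCR, stood at 205, 917 and 460 in WT against 1759, 1216 and 997 in Ela1-Myc. It was not called (1.54, adjusted p = 0.0862), and after scaling its change was 0.02 (limma adjusted p = 0.972). Rplp2, the second acidic protein, was 1429, 477 and 773 in Ela1-Myc and 153, 460 and 248 in WT, so that a single Ela1-Myc library came close to WT (limma adjusted p = 0.0796).

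Rpl5 and Rpl11 carry the 5S ribosomal RNA into the large subunit and, when free, hold the p53 regulator Mdm2. Both were called higher on the deposited scale. Rpl5 was 13.5, 140 and 49.3 in WT and 241, 228 and 244 in Ela1-Myc (log2 change 2.35, adjusted p = 0.03). Rpl11 was 25.2, 363 and 133 in WT and 711, 716 and 615 in Ela1-Myc (2.65, adjusted p = 0.023). In both genes the Ela1-Myc libraries lay close together and above WT replicate 2. After scaling the changes were 0.86 and 1.14 (limma adjusted p = 0.277 and 0.24).

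Of 8 proteins that line the exit tunnel or ring its mouth, 2 were called higher (70.2% of all genes), Rpl19 and Rpl31, both listed at 0 in WT replicate 1. Rpl19, a bridge to the small subunit, was at 439 and 125 in WT replicates 2 and 3 and at 877, 869 and 674 in Ela1-Myc (limma adjusted p = 0.0246). Rpl31 was at 95.7 and 8.85 in the same WT libraries and at 198, 197 and 196 in Ela1-Myc (limma adjusted p = 0.00624). Both fits use the zeros like any other value. The 6 not called included the tunnel proteins Rpl4 (1.99, adjusted p = 0.055), Rpl17 (1.46, adjusted p = 0.111) and Rpl39 (1.57, adjusted p = 0.0727), and the docking proteins Rpl23a (1.57, adjusted p = 0.0641) and Rpl35 (1.40, adjusted p = 0.109). Rpl26 stood at 345.7, 20.02 and 2.11 in WT against 68.5, 54.4 and 76.8 in Ela1-Myc, so that WT replicate 1, the lowest WT library for nearly all members, was the highest of the 6. It was the 1 member of the 67 above 0 in every library whose Ela1-Myc mean was below its WT mean. The fitted change, on the log scale, had the other sign and was not called (1.24 ± 1.24, SE, limma adjusted p = 0.365).

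Of 4 proteins listed for the peptidyl transferase centre and the L1 stalk, Rpl3 and Rpl8 were called higher (70.2% of all genes). Rpl10 and the L1 stalk protein Rpl10a were not. Rpl3, which reaches into the catalytic centre, was 10.1, 243 and 71.1 in WT and 633, 578 and 467 in Ela1-Myc (3.26 ± 1.02, adjusted p = 0.0115; median-of-ratios change 1.77, adjusted p = 0.149). Rpl8 was 32.1, 367 and 116 in WT and 874, 773 and 587 in Ela1-Myc (2.71, adjusted p = 0.0174). Rpl10, which is added last and completes the P site, was 431, 1362 and 803 in WT and 1890, 1369 and 1305 in Ela1-Myc. Its WT replicate 2 lay within the Ela1-Myc range, and its change of 0.95 ± 0.71 (limma adjusted p = 0.232) turned to -0.57 after scaling (limma adjusted p = 0.214). Rpl10a was 128, 417 and 274 in WT and 947, 754 and 542 in Ela1-Myc (1.57, adjusted p = 0.0843; median-of-ratios change 0.06).

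On the small subunit, 5 of 6 proteins of the message channel and decoding site were called higher on the deposited scale, near the 70.2% of all genes tested. Rps2, at the channel entry, led them with 36.1, 534 and 66.9 in WT and 1589, 1173 and 1007 in Ela1-Myc (3.48 ± 0.96, adjusted p = 0.00601; median-of-ratios change 1.97, adjusted p = 0.0817). Rps3, also at the entry, was 26.6, 136 and 47.6 in WT and 293, 276 and 255 in Ela1-Myc (2.28, adjusted p = 0.0244). Rps15, Rps23 and Rps28 had changes of 2.06, 2.00 and 1.86 (limma adjusted p = 0.0327, 0.041 and 0.0459). Rps26, at the exit of the channel, was not called and was high in WT: 371, 819 and 572 against 1589, 1392 and 1017 in Ela1-Myc (1.23, adjusted p = 0.127). On the median-of-ratios scale limma called none of the 6, Rps2 alone had an unadjusted p below 0.05, and Rps26 lay at -0.29.

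Of 5 further small subunit proteins 4 were called, a share also near the 70.2% of all genes. Rps6, the substrate of S6 kinase, was the one that was not, at 39.3, 246 and 90.02 in WT and 366, 328 and 324 in Ela1-Myc (1.81, adjusted p = 0.0691). Rpsa, also known as the laminin receptor precursor, was 25.5, 236 and 87.1 in WT and 461, 446 and 444 in Ela1-Myc (2.46, adjusted p = 0.0244). Rps27a, made as a fusion with ubiquitin, was 48.8, 440 and 156 in WT and 724, 697 and 598 in Ela1-Myc (2.15, adjusted p = 0.0419). Rps19, the gene most often mutated in Diamond-Blackfan anaemia, was listed at 0 in WT replicate 1, stood at 240 and 9.76 in WT replicates 2 and 3 and at 733, 676 and 491 in Ela1-Myc (limma adjusted p = 0.00394, or 0.111 when scaled). Rps14 was listed at 0 in the same library, at 501 and 131 in the other two and at 988, 867 and 814 in Ela1-Myc (limma adjusted p = 0.0246, or 0.283 when scaled). Over all 19 members tied to that anaemia, 12 were called higher with a median of 2.35, no more often than the 70.2% of all genes. After scaling limma called none (18.1% of all genes), and 2 were higher at an unadjusted p below 0.05.

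Listed zeros touched 10 members, all in WT and none in Ela1-Myc. WT replicates 1, 2 and 3 had 9, 0 and 3 such members, and Rpl27a and Rpl37a were at 0 in both replicates 1 and 3. Those 2 genes stood at 85.4 and 207 in WT replicate 2. In Ela1-Myc, Rpl27a was 357, 333 and 302 and Rpl37a was 674, 639 and 477. Rps12, a small subunit protein that reached the second highest mean in Ela1-Myc, was at 0, 769 and 80.3 in WT against 2817, 2391 and 1726 in Ela1-Myc. Rpl13a was at 0, 299.6 and 49.9 in WT against 778, 704 and 590 in Ela1-Myc. Rps27 had its zero in WT replicate 3, with 185 and 97.3 in replicates 1 and 2, and stood at 509, 1081 and 388 in Ela1-Myc. A 0 in WT itself makes a large change, so nothing is read from the calls of these genes: all 10 on the deposited scale (70.2% of all genes), and by limma none after median-of-ratios scaling (18.1%), with 4 at an unadjusted p below 0.05.

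Among the members above 0 in every library, Rps9 and Rpl14 had the largest changes. Rps9, an early-binding small subunit protein, was 3.05, 465 and 92.4 in WT and 1119, 984 and 776 in Ela1-Myc (4.08 ± 1.30, adjusted p = 0.0128; median-of-ratios change 2.64, adjusted p = 0.193). Rpl14 was 3.50, 214 and 17.7 in WT and 477, 449 and 348 in Ela1-Myc (4.01 ± 1.14, adjusted p = 0.00686; median-of-ratios change 2.57, adjusted p = 0.117). In both, WT replicate 1 was far below the other WT libraries. At the other end Rps29 was 880, 1213 and 999 in WT and 1947, 2023 and 1439 in Ela1-Myc, the highest WT mean of the family (0.80 ± 0.64, adjusted p = 0.262; median-of-ratios change -0.72, adjusted p = 0.167). After Rps29 and Rpl10 (0.95), the smallest changes were those of Rpl34 (1.10), Rpl13 (1.12) and Rps10 (1.13), with adjusted p of 0.177, 0.168 and 0.175, and all 3 lay below 0 after scaling (-0.41, -0.39 and -0.38). The highest levels were otherwise shared by the groups: Rpl41, Rplp1 and Rps29 were among the 5 highest means in both, with Rpl10 and Rpl13 in WT and Rps12 and Rps20 in Ela1-Myc. Rps20 was 90.6, 711 and 235 in WT and 1925, 1716 and 1188 in Ela1-Myc (2.67, adjusted p = 0.0123).

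Positions within the family were closer together in Ela1-Myc than in WT. The interquartile range of the members above 0 was 2.28, 1.503 and 1.81 log2 units in WT and 1.24, 1.17 and 1.09 in Ela1-Myc, without overlap. The rank order of the 77 members agreed between pairs of Ela1-Myc libraries with a Spearman rho of 0.945 to 0.968, and between pairs of WT libraries with 0.694 to 0.918. Pairs across the groups ran from 0.575 to 0.938. WT replicate 2 gave 0.934, 0.902 and 0.938 with the Ela1-Myc libraries, against 0.694 and 0.918 with WT replicates 1 and 3. Members of low WT level had larger changes (rho = -0.65 over the 77 members, where the WT level enters both measures), and coding length had little relation to the change (rho = 0.12). When each library was divided by the median of its 77 members and refitted over all genes, 3 members were called higher, Rpl12, Rpl27a and Rpl37a (9.92% of all genes tested), and none lower (5.19%). At an unadjusted p below 0.05, limma had 14 higher and 6 lower. On that scale 22 members had all Ela1-Myc values above all WT values (16.6% of all genes) and 22 had them all below (20.1%). The upper 22 included Rplp1, Rps2, Rps20, Rps12 and Rps19, and the lower 22 included Rps29, Rpl10, Rpl34, Rpl41, Rplp0 and Rps6. By construction this scale shows only distances from the family's middle.

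**Figure D5:**
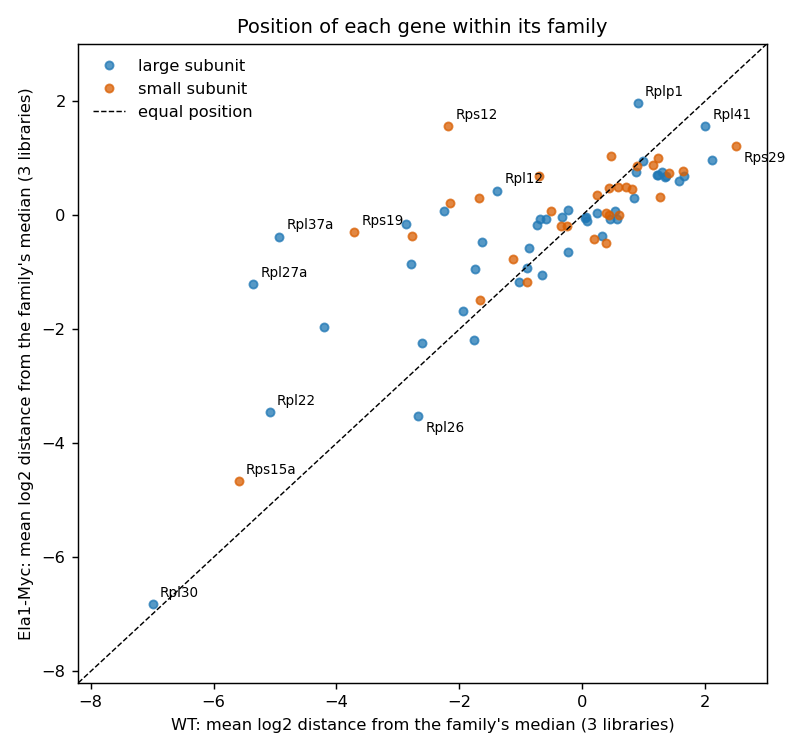
Position of each gene within its family: the distance from the family's median in the library on log2(value + 1), averaged over the 3 WT libraries (horizontal) and the 3 Ela1-Myc libraries (vertical), with the dashed line marking equal positions. Rpl37a, Rpl27a and Rps12, with listed zeros in WT, lie far above the line, while Rps29 (2.50 in WT, 1.22 in Ela1-Myc) and Rpl26 lie below it.

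Several members share a locus or reads with another row, and their single values are uncertain. Rpl30 is the clearest case. Its row (0.0575, 0.429 and 0.889 in WT, and 7.39, 6.11 and 4.25 in Ela1-Myc) was the lowest member above 0 in every library. The row Gm12191 covers the same place (chromosome 15, 34440506 to 34443233, GRCm38) and stood at 22.0, 426.1 and 123.2 in WT against 784.7, 745.5 and 644.4 in Ela1-Myc, the usual level of a ribosomal protein gene. Rpl30's own row was 0.101% to 0.933% of their sum. The sum rose by 2.77 ± 0.988 log2 units (limma adjusted p = 0.0224), and after median-of-ratios scaling its change was 1.26 with an adjusted p of 0.243, against 1.44 and 0.0299 for the Rpl30 row alone. Once the rows were added limma called no member on that scale, and 8 were higher at an unadjusted p below 0.05. Rps15a was similarly low, at 0.545, 11.3 and 1.76 in WT and 27.0, 30.7 and 30.5 in Ela1-Myc, and the row of its copy Rps15a-ps6 was higher than it in 5 of the 6 libraries. Rpl34 overlaps Rpl34-ps1, which was at 0, 0 and 47.3 in WT against 215.5, 299.3 and 86.1 in Ela1-Myc. The loci of 21 members overlap 30 small nucleolar RNA rows.

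Paralogs outside the naming rule did not all follow their partners. Rpl36al, a retrocopy that makes nearly the same protein as Rpl36a, stood at 208%, 102% and 136% of Rpl36a in the WT libraries and at 52.6%, 56.2% and 62.3% in Ela1-Myc. This within-library ratio does not depend on scaling. Its log2 differed by -1.32, Ela1-Myc minus WT, with no overlap, at the smallest p that 3 against 3 libraries allow (exact two-sided permutation p = 0.1, raw; 0.2 after Benjamini-Hochberg adjustment over the 2 ratios tested). Rpl36al itself stood at 151.3, 453.7 and 280.6 in WT against 471.0, 398.3 and 350.5 in Ela1-Myc. Rpl7l1, a biogenesis factor related to Rpl7, was 0.217% to 1.82% of Rpl7 in WT and 1.30% to 2.02% in Ela1-Myc (exact permutation p = 0.4). Rpl7l1 itself was 0.806, 3.62 and 0.253 in WT and 11.4, 10.1 and 12.4 in Ela1-Myc. It was called higher on the deposited scale (2.49, limma adjusted p = 0.000476, 70.2% of all genes). After median-of-ratios scaling it stayed called (1.46, limma adjusted p = 0.0446, 18.1% of all genes), and Rpl22l1, Rpl36al and Rps27l were not called there. Rpl22l1 exceeded Rpl22 in each library where Rpl22 was above 0, at 621% and 1332% in WT and 343%, 265% and 269% in Ela1-Myc. Rps27l was 10.4% and 199% of Rps27 in WT replicates 1 and 2 and 54.6%, 23.5% and 63.3% in Ela1-Myc. The tissue-restricted Rpl3l and Rpl39l were listed at 0 in WT and stayed below 0.15 in Ela1-Myc. Rpl10l was at 0 in Ela1-Myc, and its 3 WT values were the same low ones that 4252 gene symbols carry in these files.

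Fau and the scaffold gene of Rack1, both outside the naming rule, also encode parts of the ribosome. Fau, which encodes a ubiquitin-like protein joined to a small subunit protein, was 98.0, 300.2 and 107.2 in WT and 726.9, 807.2 and 475.5 in Ela1-Myc (2.15, adjusted p = 0.0276; median-of-ratios change 0.63, adjusted p = 0.266). Gnb2l1, the gene of Rack1, was 140.6, 565.7 and 258.8 in WT and 1180, 858.4 and 659.7 in Ela1-Myc, without a call (1.67, adjusted p = 0.0716).

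Other messages of the TOP class were called about as often as the background of 70.2%. Of 20 such genes outside the family, 14 were called higher on the deposited scale (median 2.24). After scaling the median was 0.76 and 3 were called higher (18.1% of all genes), Npm1, Nap1l1 and Gas5. All 3 had a listed 0 among the WT libraries. The nucleolar chaperone Npm1 had 13.6 in WT replicate 2, a listed 0 in the other two, and 197.1, 214.4 and 228.1 in Ela1-Myc (limma adjusted p = 0.0117 after scaling). Elongation factor Eef1a1 was 299.1, 1852 and 658.3 in WT and 3117, 2593 and 2247 in Ela1-Myc, and rose by 1.88 log2 units (limma adjusted p = 0.0374, or 0.543 when scaled). Tpt1 was the lowest after scaling, at -0.40 (limma adjusted p = 0.463).

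The 8 tested chaperones that escort single ribosomal proteins to the assembling subunits were all called higher on the deposited scale (70.2% of all genes), with a median of 1.55. After scaling (18.1% of all genes) Grwd1, which binds Rpl3, and Ltv1, an assembly factor of the small subunit, remained called (1.47 and 1.04, adjusted p = 0.0141 and 0.0369). Mitochondrial ribosomal proteins, which build a separate ribosome, were called in 56 of 75 cases (median 1.47) and in 11 after scaling (median 0.28), near the 70.2% and 18.1% of all genes. Of 9 tested genes that control TOP messages or sense free ribosomal proteins, 2 were called higher (70.2% of all genes), Mtor and Trp53. Trp53, the p53 gene, was at 0.184 and 1.27 in WT replicates 1 and 2, at 0 in replicate 3, and at 16.2, 27.3 and 19.96 in Ela1-Myc (limma adjusted p = 9.69e-06, or 0.00314 when scaled). After scaling the translation repressor Eif4ebp1 and the S6 kinase Rps6kb1 were called lower (7.95% of all genes). Their log2 changes there were -1.26 and -0.65 (limma adjusted p = 0.0441 and 0.0366). On the deposited scale these were 0.23 and 0.36, and neither gene was called.

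The motifs shown above divided the members as follows. The 27 members with a TOP-like start had a median log2 change of 2.05 on the deposited scale and the 30 without it 1.93. The 6 members with CACGTG had a median of 4.20 and the 51 without it 1.99. The 6 were far apart, from Rpl34 at 1.10 and Rpl23 at 1.68 to Rpl14 at 4.01, and Rpl13a, Rpl19 and Rps19 were listed at 0 in WT replicate 1. These medians describe few genes whose values share the same libraries, and the difference was not tested. The ETS core went with a median of 1.81 in 24 members against 2.06 in the other 33.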

How the data were processed

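RNA-seq of mouse pancreas gave 1 table for each of the 6 libraries. Its values are an adjusted FPKM, per the file headers; the adjustment the authors made is not described in the labels or headers. Per the submitters' processing notes, the tools were TopHat2 2.0.4, Bowtie and Cufflinks 2.0.2, besides affy, FastQC 0.9.4 and CASAVA 1.8, and the build was GRCm38 (mm10). The protocol text asks for a higher RIN than the samples' own labels give for 5 of the 6 libraries.

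The members and all gene lists were chosen with earlier results of these data known. Of 23422 rows (23099 symbols), the row of highest mean was kept for the 187 symbols with several. Values were divided by 100000. The filter kept genes whose mean over the 6 libraries reached 1. They were fitted with an intensity trend on log2(value + 1) in limma 3.58.1 (R 4.3.3), two-sided, so changes of low genes are understated. All 77 members passed that mean. The fit was tested on simulated data with independent noise for each gene and no shift of whole libraries. That test therefore does not cover the spread among the libraries seen here. Named members were those of 6 structural lists, the 5 highest and 5 lowest changes above 0 throughout, the 5 highest means in each group, those called after scaling, and up to 6 with listed zeros. Values of members with near-identical copies are uncertain. Sequences are RefSeq's, GRCm38.p6. Figures used matplotlib 3.10.9 in Python 3.11.15. Other scalings, pseudocounts, filters, variance models, a RIN covariate and left-out libraries were run as alternatives. Some genes of the lists are not reported by name here.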

Additional observations from a re-analysis of the deposited data

How the results depend on the processing

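No paired analysis was possible because the labels give the libraries no replicate numbers; those used here follow accession order and pair nothing. No member was called lower by limma under any of these settings. Against 43 members called higher, median-of-ratios scaling gave 1 (median 0.49), and 4 among genes above 0 in all 6 libraries (median 0.39); quantile normalization gave 8 (0.45) and removal of the enzymes with equal totals 14 (0.72). A pseudocount of 10 gave 22, no filter 15, RIN as a covariate 16, array weights 77 and no intensity trend 73, with medians within 0.1 of the 2.00 reported. The shares of all genes called are not given for these counts or for those with libraries left out. Whether such changes in count are particular to the family is therefore not shown. Leaving out 1 library gave 0 to 75 members and medians of 0.069 to 2.66 over both scales: on the deposited scale, leaving out the WT libraries in turn gave 20, 75 and 29, and the Ela1-Myc libraries 10, 15 and 13. Both of the following choices were added after seeing the data. Without WT replicates 1 and 3, 15 members were called (median 0.80), and after scaling 1 (median -0.29). With the Rpl30 and Gm12191 rows summed, 0 were called after scaling (median 0.49). Mean shares without the enzymes were 17.9% and 26.6%. Of 48 named genes, 11 had the other sign after median-of-ratios scaling and none of those was called on either scale. Rpl36al turned to -1.06 under quantile normalization and -0.69 without the enzymes, both called lower. Called genes below 0 after scaling without WT replicates 1 and 3, none called there, were Rpl11 (-0.19), Rpl14 (-0.12), Rpl19 (-0.23), Rpl31 (-0.054), Rpl5 (-0.33), Rpl8 (-0.094), Rps14 (-0.27), Rps15 (-0.37), Rps23 (-0.42), Rps27a (-0.49), Rps27l (-0.67), Rps28 (-0.42), Rps3 (-0.081), Rps9 (-0.068) and Rpsa (-0.17). Leaving out 1 library, Rps28 ranged from 1.29 to 2.45 on the deposited scale and from -0.021 to 0.68 after median-of-ratios scaling. The cause of these differences was not tested. Read depth is unknown, so no limit on low values can be given.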
